A study of Mus musculus with 16 samples.

Results

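Autophagy and mitophagy genes were compared in the skeletal muscle of mice under a normal or a high-fat diet (HFD). The 10 genes were taken by name from the mRNA table, in which each gene's level is the sum of the counts of its transcripts. They were Ulk1, Becn1, Tfeb, Map1lc3a, Map1lc3b, Gabarapl1, Sqstm1, Bnip3, Bnip3l, and Ctsl, 10 of the 23235 gene names of the table, with 78 transcripts. All 10 had enough counts to enter the test, which was run on 15364 genes. The study used male C57BL/6J mice (strain given as C57BL/6 in the sample labels), bought at 6 weeks of age. The control group ate a normal diet, and the other 3 groups ate feed with 60% fat. After 8 weeks of the HFD, the HFD + RSV group received resveratrol (spelled reveratrol in the labels) and the HFD + metformin group received metformin, each for 6 weeks. RNA of 4 mice in each group was sequenced in 1 library per mouse, so n was 4 in every group, and mice are numbered 1 to 4 within a group. The labels name neither the muscle nor the drug doses, and the study's methods give a dose for resveratrol only. Per those methods, some mice of each group they describe were injected with insulin shortly before tissue collection. Whether the sequenced mice were among them is not stated.

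In autophagy, a membrane closes around part of the cytoplasm, and the resulting autophagosome fuses with a lysosome, whose enzymes break the content down. The ULK1 kinase and the Beclin 1 lipid kinase complex start the membrane, proteins of the ATG8 family (LC3 and GABARAP) are joined to its lipids, and receptors that bind both ATG8 proteins and cargo select what is enclosed. Mitophagy is the same process directed at mitochondria, and in muscle several of these genes are known to be transcribed more in fasting and disuse. The counts measure mRNA and not the flux of material through the pathway.

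Total counts per mouse over the mRNA and lncRNA tables ranged from 20281801 to 34021101. The 7 muscle fibre markers were abundant in every library, with summed levels of 163603 to 315894 CPM (counts scaled to library size by the TMM method). Other marker lists differed between mice of 1 group. The 5 white adipocyte markers summed to 493 to 2414 CPM in the control group, 47.9 to 558 under the HFD alone, 96.4 to 729 in the HFD + RSV group, and 26.4 to 2407 in the HFD + metformin group, and the highest sums were in control mouse 3 and HFD + metformin mouse 3. The same 2 mice had the highest Ucp1, the uncoupling protein of brown fat, at 408 and 89.9 CPM, against 0.224 to 39.9 CPM in the other 14 mice. The 6 slow-fibre markers summed to 657 to 1487 CPM in control mice 2 to 4 but to 9.77 CPM in control mouse 1, and to 6.84 to 118 CPM in the HFD group. No adipocyte or slow-fibre marker was at 0 in all mice of a group. In pieces of tissue, fewer cells of a type and less RNA per cell cannot be told apart. All 4 HFD mice share the leading label number 7, which no other mouse carries, so a cage or batch behind that number cannot be told apart from the HFD without treatment.

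The sequence around the start site, most of it upstream, was available from RefSeq for 7 of the 10 genes, in 9 windows of 300 bases each. The windows of Gabarapl1 and Bnip3 are shown because these genes were called between the diets, and that of Map1lc3b because it belongs to the same family as Gabarapl1 and was not called. The windows lie in the GRCm38.p6 build at chr6:129532942-129533241 on the plus strand for Gabarapl1, at chr7:138909457-138909756 on the minus strand for Bnip3, and at chr8:121590188-121590487 on the plus strand for Map1lc3b. Each is written 5′ to 3′, and capitals mark the E-box CACGTG.
Gabarapl1: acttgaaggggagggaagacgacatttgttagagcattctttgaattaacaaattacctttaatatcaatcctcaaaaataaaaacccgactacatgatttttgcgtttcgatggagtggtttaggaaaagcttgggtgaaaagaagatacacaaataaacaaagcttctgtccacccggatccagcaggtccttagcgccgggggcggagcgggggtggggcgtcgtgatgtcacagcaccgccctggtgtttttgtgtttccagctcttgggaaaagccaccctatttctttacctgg
Bnip3: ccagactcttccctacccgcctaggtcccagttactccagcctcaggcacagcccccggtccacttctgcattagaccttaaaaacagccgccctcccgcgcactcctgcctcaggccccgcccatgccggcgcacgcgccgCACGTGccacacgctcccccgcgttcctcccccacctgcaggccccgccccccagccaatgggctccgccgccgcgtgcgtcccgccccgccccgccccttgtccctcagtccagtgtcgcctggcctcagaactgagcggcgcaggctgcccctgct
Map1lc3b: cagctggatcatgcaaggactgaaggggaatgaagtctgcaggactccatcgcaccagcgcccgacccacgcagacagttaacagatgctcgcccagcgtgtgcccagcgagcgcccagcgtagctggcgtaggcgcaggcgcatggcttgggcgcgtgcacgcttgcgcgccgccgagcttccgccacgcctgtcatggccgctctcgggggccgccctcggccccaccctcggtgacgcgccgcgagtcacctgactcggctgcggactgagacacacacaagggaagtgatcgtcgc
The windows were searched on both strands for 5 motifs, namely the E-box CACGTG, its longer form TCACGTGA that TFEB is known to bind, the FoxO motif GTAAACA, the core ACGTG bound by hypoxia-inducible factors, which lies inside the E-box, and the palindromic glucocorticoid receptor motif. The E-box was found in the windows of Bnip3 and Ctsl, 108 and 236 bases before the start site around which each window was set. The Ctsl window, chr13:64370471-64370770 on the minus strand, lies wholly upstream of the start of its leading transcript ENSMUST00000021933 at 64370306. The E-box was held by 7.15% of the 32851 promoter windows of the mouse table. The core ACGTG was found only inside these E-boxes and was held by 19.6% of all windows. The other 3 motifs, held by 0.974%, 3.65%, and 0.475% of all windows, had no match in the 9 windows, and Gabarapl1 and Map1lc3b matched none of the 5. For the FoxO motif only the exact letters GTAAACA were searched, so near forms, such as ATAAACA in the Gabarapl1 window, were not counted.

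Compared per transcript length in FPKM over all 16 mice, Sqstm1 was the most abundant of the genes at 223 ± 35.6 (mean ± SD), followed by Bnip3 at 131 ± 40.3 and Map1lc3a at 78.4 ± 8.67. Gabarapl1 (40.1 ± 16.6), Ctsl (37.3 ± 7.31), and Ulk1 (36.2 ± 8.55) lay close together. Tfeb (22.1 ± 4.55), Map1lc3b (21.9 ± 3.17), Bnip3l (19.3 ± 2.25), and Becn1 (14.7 ± 2.06) were the lowest. Gabarapl1 varied most between mice, with a highest FPKM 3.67 times the lowest, and Bnip3l least, at 1.49 times.

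The first comparison asks how the HFD changed the genes. Gabarapl1 and Bnip3 were downregulated in the HFD group, and the other 8 genes did not pass the test. Calls were made with edgeR's quasi-likelihood test at a Benjamini-Hochberg adjusted P below 0.05 over all 15364 genes, which called 2.43% of them in this comparison, 1.11% as lower. Of the 10 genes, 2 were called, both lower, and in both the control and HFD mice did not overlap, as in 9.44% of all genes in the same direction. The median log2FC was -0.08 over the 10 genes and -0.02 over all genes tested.

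Gabarapl1 (ENSMUSG00000030161, chr6:129533160-129542346 in GRCm38, plus strand) encodes a GABARAP-type ATG8 protein of the autophagosome membrane. Its level was 97.7, 157, 113, and 99.98 CPM in control mice 1 to 4 and 49.9, 66.9, 56.7, and 66.2 CPM in HFD mice 1 to 4. It was 78.3, 49.5, 67.9, and 69.4 CPM in the HFD + RSV group and 57.0, 59.7, 81.5, and 67.5 CPM in the HFD + metformin group. Every control mouse was above every mouse of the other 3 groups, whose values overlapped, and control mouse 2 was the highest. The mean fell from 117 ± 27.5 CPM in control mice to 59.9 ± 8.16 in HFD mice, a log2FC of -0.96 (SE 0.18, 95% interval -1.34 to -0.59, edgeR adjusted P = 0.0202). An exact permutation test of 4 mice against 4 gave P = 0.0286, the smallest that it allows.

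Bnip3 (ENSMUSG00000078566, chr7:138890836-138909519 in GRCm38, minus strand) encodes a receptor in the outer mitochondrial membrane that binds ATG8 proteins and is known as a target of hypoxia-inducible factors. Its level was 283, 304, 345, and 289 CPM in the control mice and 195, 191, 190.3, and 193 CPM in the HFD mice. It was 200.3, 214, 179, and 230.3 CPM in the HFD + RSV group and 205, 196, 326, and 232 CPM in the HFD + metformin group. The control and HFD mice did not overlap, and the 4 HFD mice lay within a narrow range, while HFD + metformin mouse 3 lay among the control mice. The mean fell from 305 ± 28.1 to 192 ± 2.00 CPM between the control and HFD groups, a log2FC of -0.67 (SE 0.14, 95% interval -0.96 to -0.37, edgeR adjusted P = 0.0342, exact permutation P = 0.0286).

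**Figure D1:**
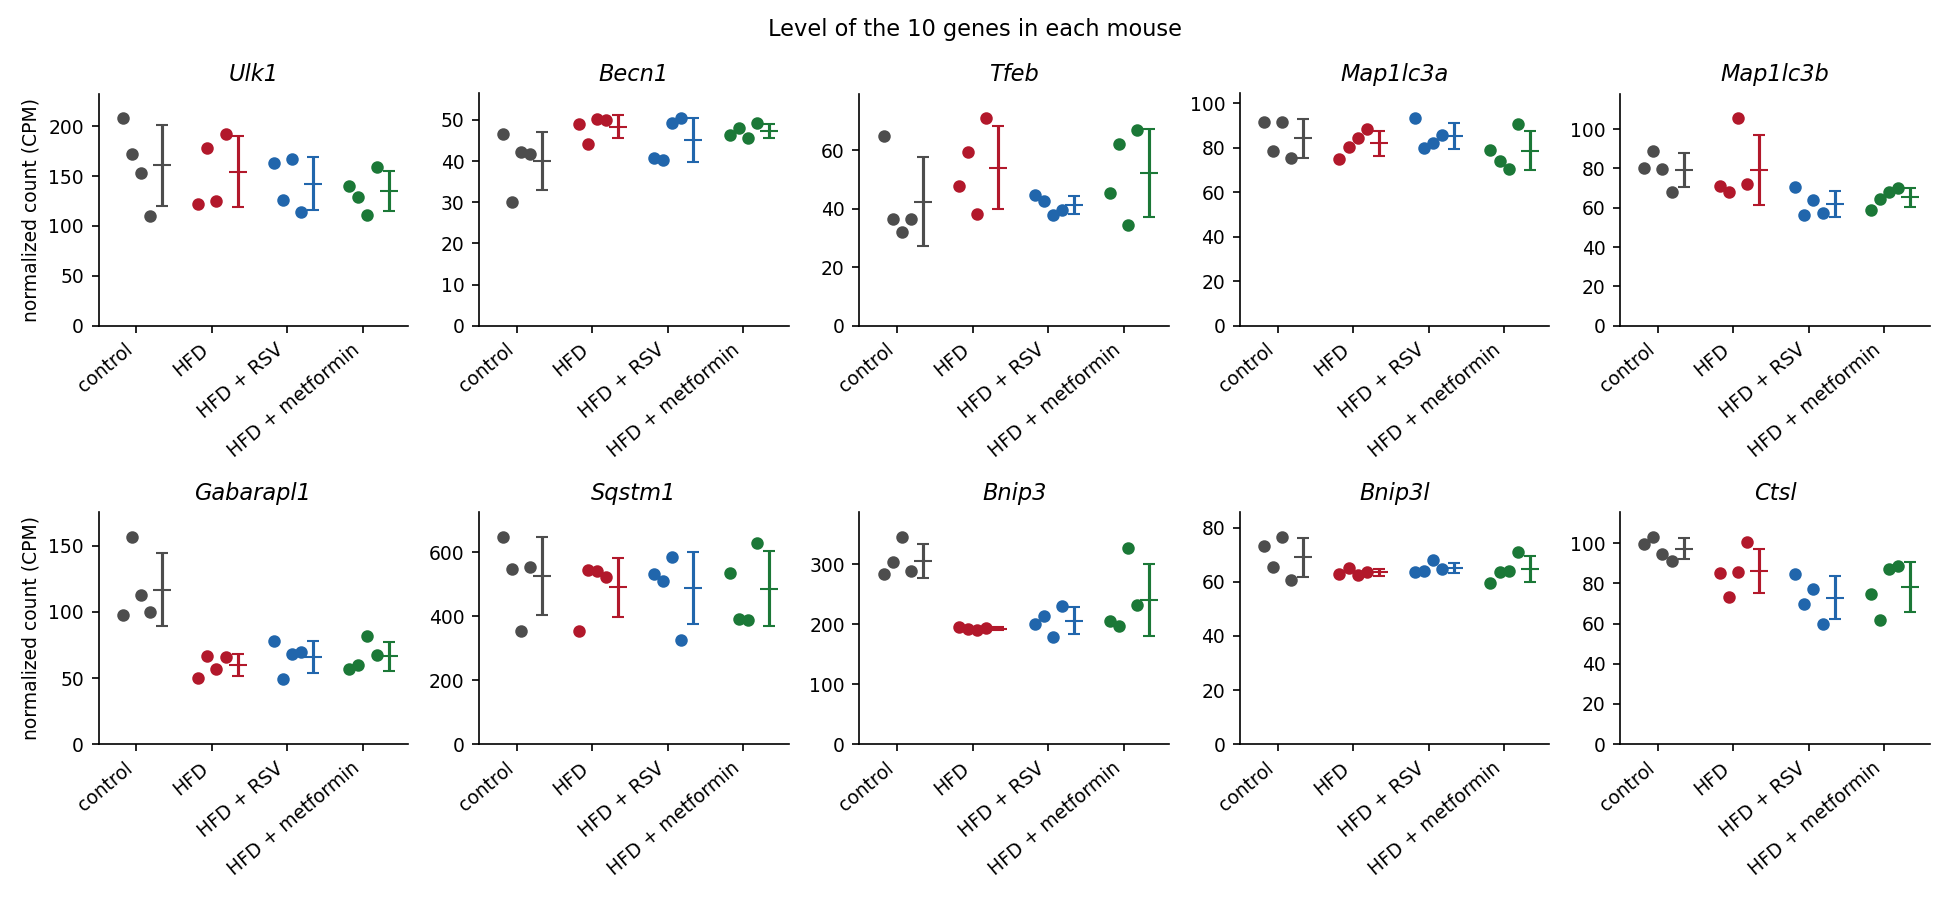
Level of each of the 10 genes in CPM (TMM scaled) by group, with 1 point per mouse, a horizontal mark for the mean, and bars for the SD (n = 4). Gabarapl1 was 97.7 to 157 CPM in the control mice and 49.5 to 81.5 CPM in the other 12, and Bnip3 was 283 to 345 CPM in the control mice and 190.3 to 195 CPM in the HFD mice.

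Both calls kept their direction without each mouse in turn, but the adjusted P was lost for both genes without control mouse 2 or 3 or HFD mouse 1, 2, or 3, and for Bnip3 alone without control mouse 4 or HFD mouse 4. The adjusted P of edgeR then reached 0.0750 for Gabarapl1 and 0.107 for Bnip3, and the log2FC ranged from -1.04 to -0.79 and from -0.70 to -0.60. The fits in which a call was lost called 16 to 120 of all genes tested, against 374 with all 16 mice.

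Because control mouse 3 and HFD + metformin mouse 3 stood apart in adipocyte markers, the fit was also made without both. Gabarapl1 then had a log2FC of -0.98 between the HFD and control mice (edgeR adjusted P = 0.0159) and Bnip3 one of -0.61 (edgeR adjusted P = 0.00721). The slow-fibre markers were lower in the HFD group with a median log2FC of -3.74. Of these, 6 of 6 had an unadjusted P under 0.05, against 24.2% of all genes, and none an adjusted P under 0.05 (edgeR). Of the 4 brown adipocyte markers, 2 were called lower, against 1.11% of all genes. No marker of the remaining tested lists was called, and their median log2FC ran from -1.91 (white adipocyte) to 0.52 (fast fibre). Control mouse 1, whose slow-fibre sum was as low as in the HFD mice, had 97.7 CPM of Gabarapl1 and 283 CPM of Bnip3. For both genes it was the lowest of the control mice and above every HFD mouse. The part of fibre type in the differences of both genes was not tested.

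**Figure D2:**
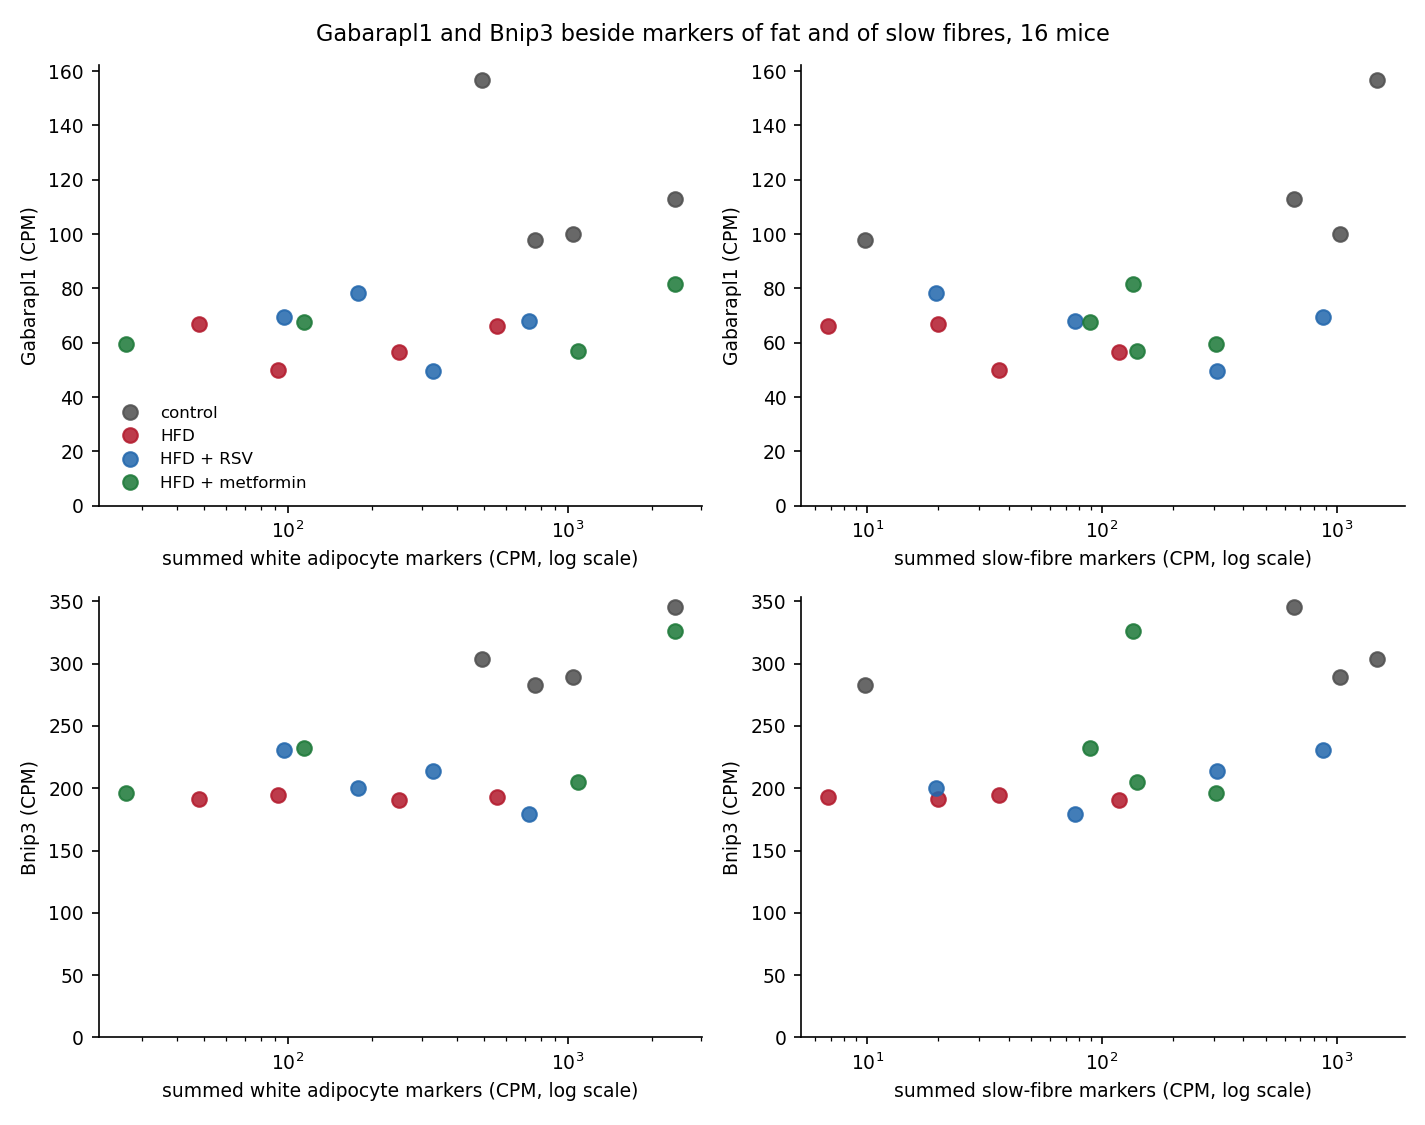
Gabarapl1 and Bnip3 in CPM in each of the 16 mice (points, colored by group) against the summed CPM of 5 white adipocyte markers and of 6 slow-fibre markers, both on a log scale. The 4 HFD mice lie at 190.3 to 195 CPM of Bnip3 across sums of 47.9 to 558 CPM of the adipocyte markers, and the 2 mice with the highest adipocyte sums have the highest Bnip3.

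Among the genes that start the membrane, Ulk1, the kinase of the initiating complex, was 208, 172, 153, and 109.6 CPM in the control mice and 122, 179, 125, and 192 CPM in the HFD mice. The HFD values lay within the range of the control values, and the log2FC was -0.06 (95% interval -0.49 to 0.38). Becn1, the scaffold of the lipid kinase complex, was 46.5, 30.1, 42.1, and 41.6 CPM in the control mice and 49.1, 44.1, 50.2, and 50.1 CPM in the HFD mice, with a log2FC of 0.27 (SE 0.12, unadjusted P = 0.0339 and adjusted P = 0.172 in edgeR). The groups overlapped, and control mouse 2 was the lowest. In FPKM, which has no TMM scaling, the log2FC of Becn1 was 0.03. The median log2FC of all genes was -0.16 in that fit, against -0.02 in the main fit. Tfeb, a transcription factor of lysosomal and autophagy genes, was 31.9 to 64.9 CPM in control mice and 38.2 to 70.9 CPM in HFD mice, with a log2FC of 0.35 and a 95% interval from -0.18 to 0.88.

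The 2 LC3 genes, which encode the ATG8 proteins most used as autophagosome markers, did not follow Gabarapl1. Map1lc3a was 84.2 ± 8.63 CPM in control mice and 82.0 ± 5.68 in HFD mice (log2FC -0.04, 95% interval -0.24 to 0.17). Map1lc3b was 79.3 ± 8.63 and 79.1 ± 17.6 CPM (log2FC -0.0037, 95% interval -0.29 to 0.28), and HFD mouse 3, at 105 CPM, was above all other mice. Both pairs of groups overlapped, and the direction of both genes changed under other scalings or with mice left out, with log2FC from -0.21 to 0.0045 and from -0.17 to 0.06.

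Among the receptors, Sqstm1, which encodes the ubiquitin-binding receptor p62, was 526 ± 123 CPM in control mice and 490.4 ± 92.1 in HFD mice (log2FC -0.10, 95% interval -0.59 to 0.39). Bnip3l, the paralog of Bnip3 that acts in the clearance of mitochondria from maturing red cells, was 69.1 ± 7.25 and 63.6 ± 1.23 CPM (log2FC -0.12, 95% interval -0.29 to 0.05). Ctsl, a cysteine protease of the lysosome, was 97.2 ± 5.23 and 86.2 ± 11.1 CPM (log2FC -0.17, 95% interval -0.45 to 0.11). In all 3 genes the groups overlapped.

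**Figure D3:**
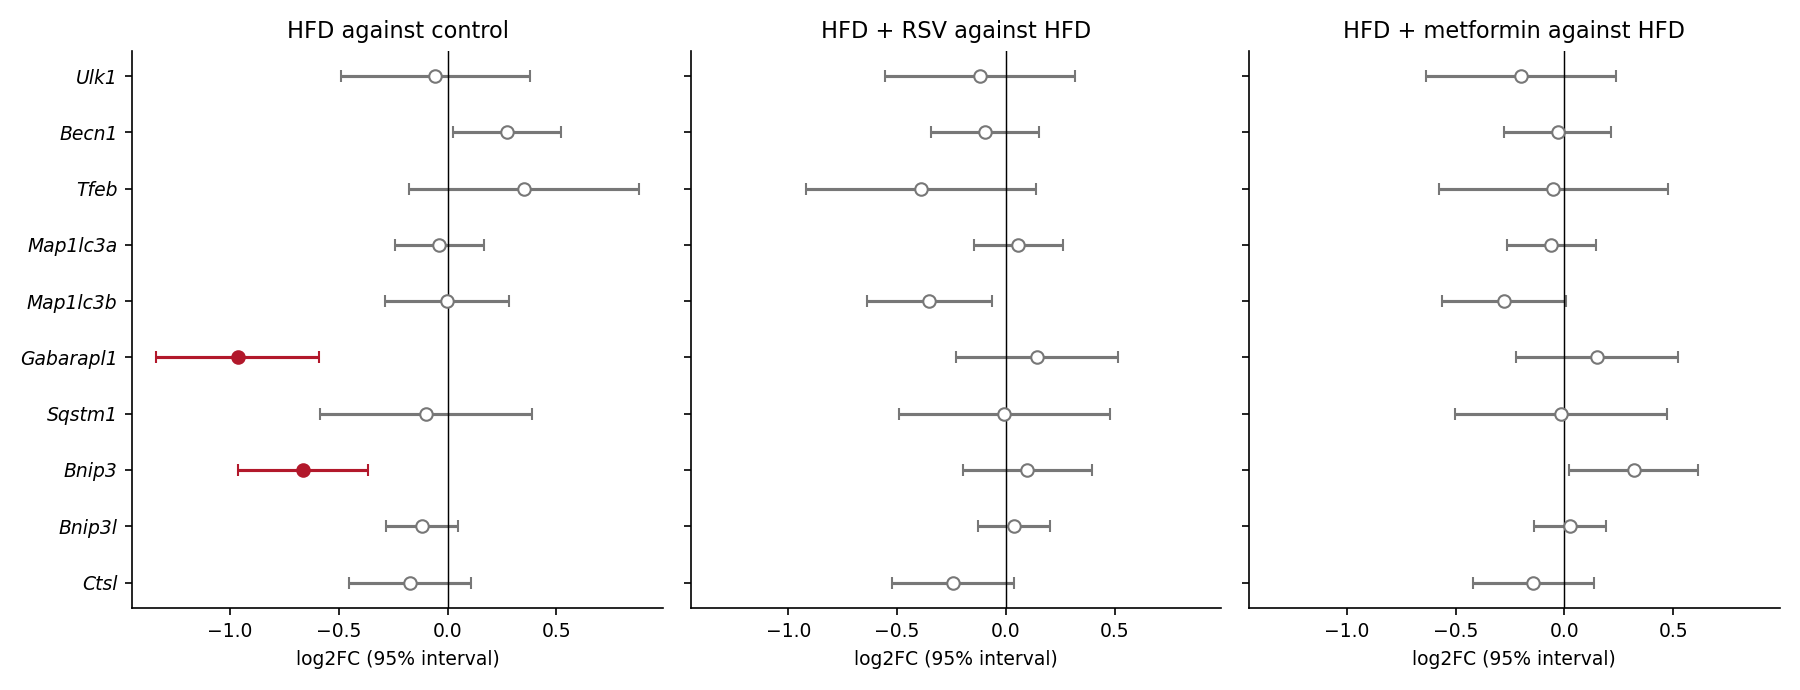
The log2FC of each gene (x axis) with its 95% interval in the 3 comparisons, where filled red points passed an adjusted P of 0.05 in edgeR. Gabarapl1 (-0.96) and Bnip3 (-0.67) passed between the HFD and control groups, and no gene passed in the 2 comparisons of treated mice with HFD mice.

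The level of Gabarapl1 was also divided by that of other ATG8 genes within each mouse, which removes any scaling between libraries. These ratios were chosen after the values had been seen. The ratio to Gabarap was 1.72, 2.69, 1.52, and 1.62 in the control mice and 0.848, 1.18, 0.952, and 1.09 in the HFD mice, so the groups did not overlap. The mean log2 ratio was lower in the HFD group by 0.87 for Gabarap, by 1.05 for Gabarapl2, by 0.91 for Map1lc3a, and by 0.93 for Map1lc3b. The ratio of Bnip3 to Bnip3l was 3.85, 4.65, 4.50, and 4.75 in the control mice and 3.09, 2.93, 3.05, and 3.03 in the HFD mice, a mean log2 ratio lower by 0.55. Each of these 5 differences had an exact permutation P of 0.0286, the smallest that the test allows, and an adjusted P of 0.0857 over the 15 ratio tests made. None passed the adjustment, and with 5 of 15 tests at this floor none could have passed, whatever the size of the differences. Both numerators, Gabarapl1 and Bnip3, had already been called between these groups, so the ratios give no separate support for the calls.

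The second comparison asks whether resveratrol changed the genes on the HFD, and it shares the HFD mice with the first comparison and with that of metformin. None of the 10 genes was called between the HFD + RSV and HFD groups, where edgeR called 0% of all genes tested at the adjusted P (725 genes, 4.72%, had an unadjusted P under 0.05). Gabarapl1 was 66.3 ± 12.1 CPM in the HFD + RSV group, a log2FC of 0.14 with a 95% interval from -0.23 to 0.52, and Bnip3 was 206 ± 21.8 CPM, a log2FC of 0.10 with an interval from -0.20 to 0.40.

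Of the 10 genes, Map1lc3b alone had an unadjusted P under 0.05 here, with a log2FC of -0.35 (P = 0.0192, adjusted P = 0.999 in edgeR, exact permutation P = 0.0571). It was 71.0, 67.9, 105, and 72.3 CPM in the HFD mice and 70.6, 56.3, 63.9, and 57.2 CPM in the HFD + RSV mice, so the groups overlapped. Without HFD mouse 3, the log2FC was -0.18 (unadjusted P = 0.103 in edgeR). The other genes ranged from a log2FC of -0.39 for Tfeb to 0.14 for Gabarapl1.

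The next comparison is that of the HFD + metformin group with the HFD group. None of the 10 genes was called, and edgeR called 0.013% of all genes, with 8.02% at an unadjusted P under 0.05. Bnip3 was higher in each of the 4 treated mice than in every HFD mouse, with a mean of 239.9 ± 59.4 against 192 ± 2.00 CPM and a log2FC of 0.32 (unadjusted P = 0.0374, adjusted P = 0.618 in edgeR, exact permutation P = 0.0286). Such a separation upwards was found for 1.83% of all genes. HFD + metformin mouse 3, which had the highest adipocyte marker sum of its group, was also the highest for Bnip3, and without it the log2FC was 0.14 (unadjusted P = 0.196 in edgeR). Gabarapl1 was 66.4 ± 11.0 CPM, a log2FC of 0.15 with a 95% interval from -0.22 to 0.52. The HFD + metformin and HFD + RSV groups, which have the same diet and different drugs, differed in none of the genes at an unadjusted P of 0.05, and edgeR called 0% of all genes at the adjusted P (719 genes, 4.68%, at the unadjusted P). The interval of their difference was -0.37 to 0.38 in log2FC for Gabarapl1 and -0.08 to 0.52 for Bnip3.

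Against the control group, which these comparisons share, Gabarapl1 stayed low in both treated groups without passing the adjustment. It was lower by a log2FC of -0.82 in the HFD + RSV group (adjusted P = 0.108, with 0.00651% of all genes called by edgeR) and of -0.82 in the HFD + metformin group (adjusted P = 0.191, with 0% called). Neither treated group overlapped with the control mice (exact permutation P = 0.0286), a separation downwards found for 5.88% of all genes with resveratrol and 1.57% with metformin. Bnip3 was lower by -0.57 in the HFD + RSV group (adjusted P = 0.141 in edgeR, no overlap) and by -0.35 in the HFD + metformin group (adjusted P = 0.445 in edgeR, overlapping). Without HFD + metformin mouse 3, both genes passed in both comparisons. The adjusted P by edgeR was then 0.0298 and 0.0171 for resveratrol and 0.0362 and 0.0315 for metformin. Calls over all genes rose as well in that fit of 15565 genes. They went from 1 to 261 for resveratrol and from 0 to 180 for metformin. The passes of the 2 genes thus came with more calls over all genes and are not specific to them. The mouse left out belongs to neither group of the resveratrol comparison. In a test of any difference among the 4 groups, the smallest adjusted P of edgeR was 0.0669 for Gabarapl1, followed by 0.118 for Bnip3, and 0.117% of all genes were called.

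At an unadjusted P under 0.05, 4 of the 10 genes were lower with resveratrol than in control mice. Of all genes, 7.98% were lower at this P and 15.8% passed in either direction. In the HFD + metformin group, 3 of the 10 were lower (4.15% of all genes, 9.5% in either direction). Ctsl, one of them in both, was 99.6, 103, 94.7, and 91.2 CPM in the control mice, 84.8, 69.7, 77.2, and 59.6 CPM in the HFD + RSV mice, and 74.7, 61.8, 87.4, and 88.5 CPM in the HFD + metformin mice. Neither treated group overlapped with the control mice, while HFD mouse 4, at 100.4 CPM, lay among them. The log2FC against the control group was -0.42 in the HFD + RSV group (SE 0.13, adjusted P = 0.184 by edgeR) and -0.32 in the HFD + metformin group (SE 0.13, edgeR adjusted P = 0.459). By mean CPM, the groups ranked control, HFD, HFD + metformin, and HFD + RSV for Ctsl, with overlap between each group and the next. Gabarapl1 ranked control, HFD + metformin, HFD + RSV, and HFD, and the step from the control group was the only one between neighboring groups, in any of the 10 genes, in which the mice did not overlap.

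The counts of several genes were split over transcripts whose shares differed between mice. Gabarapl1, Bnip3, and Ctsl each had 1 leading transcript with 94.5%, 95.1%, and 94.9% of the gene's count. The leading transcript of Gabarapl1, ENSMUST00000032264, had a log2FC of -0.94 in the HFD group and that of Bnip3, ENSMUST00000106112, one of -0.64 in a fit to 44573 transcripts, where neither passed (edgeR adjusted P = 0.0986 and 0.120) and 0.0157% of all transcripts were called. None of the 50 tested transcripts of the 10 genes was called in this fit, while 11 of the 50 had an unadjusted P under 0.05, as did 13.1% of all transcripts. Stretches of 75 bases that also occur in transcripts of other genes made up 46.3% of the leading transcript of Bnip3 and 17.5% of that of Gabarapl1. Part of their reads may thus also match those transcripts. The share was 43.1% for Becn1, all with the overlapping gene Cntd1, 18.7% for Bnip3l, and 5.93% for Map1lc3b. It was 0% for Sqstm1, Map1lc3a, Ulk1, Tfeb, and Ctsl.

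For Sqstm1, transcript ENSMUST00000143379 of 1266 bases was at 0 in 11 mice and held 3879 to 5695 counts in the other 5, which were control mouse 3, HFD mice 1 and 4, HFD + RSV mouse 4, and HFD + metformin mouse 2. In those 5 mice the longer ENSMUST00000015981 of 2673 bases held 491 to 869 counts, against 4742 to 9200 in the other 11. The summed count of the gene was 325 to 522 CPM in the 5 mice and 389 to 648 CPM in the 11, while the summed FPKM was 185 to 334 and 186 to 243. HFD mouse 1 was thus the lowest HFD mouse in CPM, at 353, and not in FPKM, at 196. At least 1 of the 5 mice came from each of the 4 groups.

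**Figure D4:**
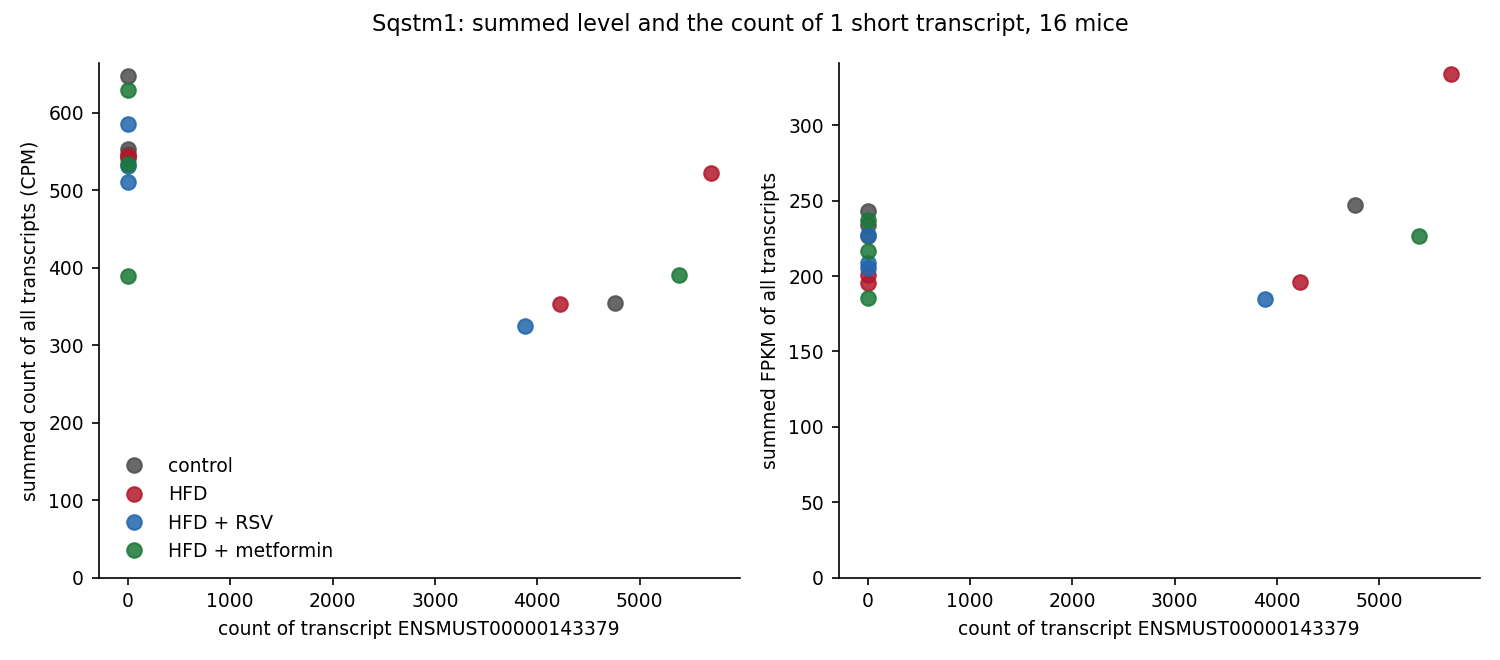
Summed level of Sqstm1 in each of the 16 mice, in CPM (left) and in FPKM (right), against the count of transcript ENSMUST00000143379 (points colored by group). The 11 mice at a count of 0 span 389 to 648 CPM, and the 5 others, at 3879 to 5695 counts, span 325 to 522 CPM.

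For Bnip3l, transcript ENSMUST00000022634 held 190, 336, 710, and 205 counts in the control mice and 42, 106, 118, and 130 in the HFD mice. Its share of the gene's count was 21.2% ± 10.1 in control mice, 6.84% ± 2.85 in HFD mice, 11.8% ± 1.73 in the HFD + RSV group, and 9.47% ± 4.37 in the HFD + metformin group. The log2FC in the HFD group was -1.76 (SE 0.44), which did not pass (edgeR adjusted P = 0.161), while the summed gene differed little between the groups. ENSMUST00000022634 (3238 bases, chr14:66985239-67008877) spans nearly the same stretch as the leading ENSMUST00000111115 (3259 bases, chr14:66985239-67008856). How well the reads tell these transcripts apart was not tested. For Tfeb, the 2 leading transcripts, which start at different sites, varied widely between single mice, with shares of the gene's count of 4.53% to 81.3% for ENSMUST00000024786 and 6.84% to 85.6% for ENSMUST00000086932. Such swings between mice of 1 group were also seen for Becn1, whose transcript ENSMUST00000130916 held 13.2% to 72.3%.

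Of the other autophagy and lysosome genes, 91 were listed by role, and all 91 were tested. Between the HFD and control groups, 5 of the 91 were called (5.49%, against 2.43% of all genes). All 5 were lower under the HFD, a direction in which 1.11% of all genes were called. An unadjusted P under 0.05 was reached by 27, 12 higher and 15 lower (29.7%, against 24.2% of all genes). The median log2FC of the 91 genes was -0.0024. Without the HFD + metformin mice in the fit, 5 of the 91 were called higher and 7 lower. That fit called 1616 of all 15097 genes tested. DESeq2 on all 16 mice called 5 higher and 8 lower, with 1544 of all 15364 genes called. The split between directions thus depended on the mice included and on the tool, as did the number called over all genes. None of the 91 was called without control mouse 2 or 3 or without any 1 of the HFD mice. Those fits called only 16 to 100 of all genes tested, against 374 with all 16 mice.

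The largest of these changes was in Ddit4, an inhibitor of mTORC1 that responds to stress and glucocorticoids. It was 34.8, 100.2, 129, and 161 CPM in the control mice and 28.7, 13.1, 18.03, and 16.3 CPM in the HFD mice, without overlap (log2FC -2.48, SE 0.51, edgeR adjusted P = 0.0336). With resveratrol, Ddit4 was 24.6, 48.1, 34.2, and 75.9 CPM, which overlapped with the HFD mice (log2FC 1.26, adjusted P = 0.999 in edgeR). Atp6v0e, a subunit of the V-ATPase that acidifies lysosomes, was 20.7, 23.5, 37.1, and 20.2 CPM in the control mice and 12.3, 11.5, 13.3, and 14.4 CPM in the HFD mice (log2FC -0.98, SE 0.20, edgeR adjusted P = 0.0336). Control mouse 3 was the highest for Atp6v0e, and in the HFD + metformin group, where the values were 16.9, 14.1, 25.3, and 15.02 CPM, mouse 3 was again the highest. Nrbf2, a subunit of the Beclin 1 complex, was 13.1 to 16.2 CPM in the control mice and 8.87 to 10.7 CPM in the HFD mice (log2FC -0.56, SE 0.13, edgeR adjusted P = 0.0438).

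The other 2 called genes, named after their values were seen, were Lamp2, a lysosomal membrane protein (log2FC -0.44, with 122 to 149.9 CPM in the HFD mice and 167 to 220.3 CPM in the control mice), and Atp6v1h, a further V-ATPase subunit (log2FC -0.56). By role, none of the 4 ULK complex genes, the 10 conjugation genes, the 6 cargo receptors, the 9 mitophagy genes, or the 7 lysosomal proteases was called, with median log2FC of 0.13, 0.05, -0.03, 0.08, and -0.28. The V-ATPase list held 2 called genes of 12 (16.7%, against 2.43% of all genes) with a median of -0.04. In the treated groups against the HFD group, none of the 91 was called. Unadjusted P under 0.05 was reached by 2 of the 91 in the HFD + RSV group (2.20%, against 4.72% of all genes) and by 3 in the HFD + metformin group (3.30%, against 8.02%).

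**Figure D5:**
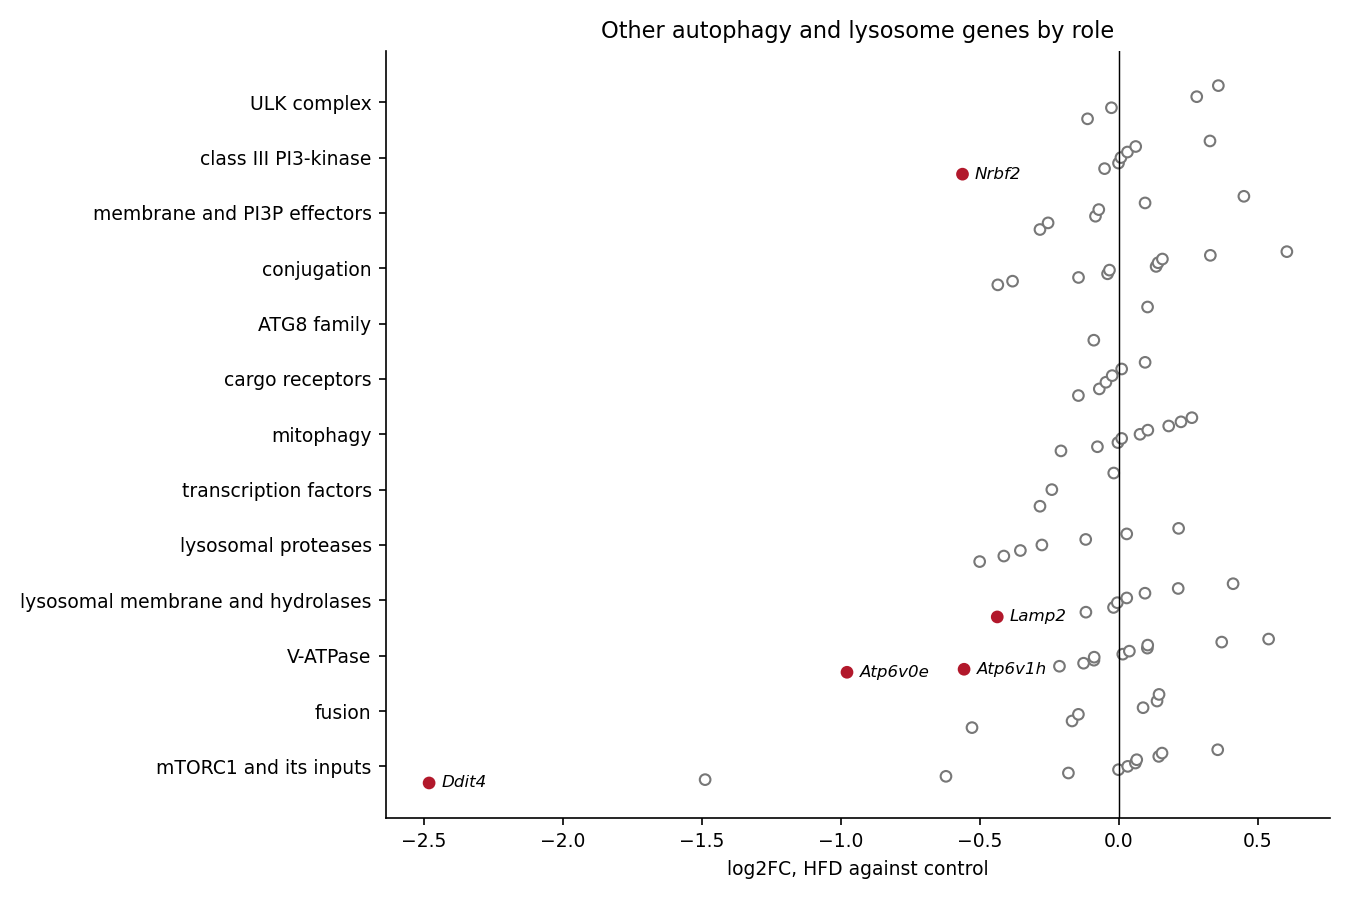
The log2FC of 91 other autophagy and lysosome genes between the HFD and control groups (x axis), grouped by role, with 1 point per gene. The 5 filled and named points passed an adjusted P of 0.05 in edgeR, and their log2FC were between -2.48 and -0.44.

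The genes whose log2 CPM followed Gabarapl1 most closely over the 16 mice were Kyat3 (Pearson's r = 0.91, Spearman's rho = 0.87), Pdp2 (r = 0.91, rho = 0.85), and Catsper2 (r = 0.91, rho = 0.88). For Bnip3 they were Cyp2d22 (r = 0.96, rho = 0.87), Xrn2 (r = 0.94, rho = 0.76), and Fmo2 (r = 0.93, rho = 0.87), and for Ctsl they were Cryl1 (r = 0.91, rho = 0.91), Zfyve21 (r = 0.85, rho = 0.92), and Mau2 (r = 0.84, rho = 0.88). Each was the best of all genes tested, and the mice share the difference between the control mice and the others, so these values are descriptions. Gabarapl1 and Bnip3 had an r of 0.78 with each other over all mice.

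After the group means were subtracted, none of the 45 pairs of the 10 genes had an adjusted P under 0.05, and the smallest in permutations within groups was 0.502 for r and 0.213 for rho. The closest pair by unadjusted P was Ulk1 and Tfeb (r = 0.66, permutation P = 0.0207, rho = 0.67, permutation P = 0.0190, r = 0.62 without the 2 mice farthest from the median of Ulk1). Gabarapl1 and Bnip3 were not among the 3 pairs with an unadjusted P under 0.05.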

How the data were processed

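RNA of skeletal muscle from 16 male mice, 4 in each of 4 groups, was sequenced. Per the labels and the study's methods, reads were trimmed with fastp, aligned to GRCm38 with HISAT2, and quantified per transcript with StringTie. The authors deposited estimated counts, which are whole numbers without normalization, and FPKM, which equal the count divided by transcript length and the total of the mRNA and lncRNA tables (median difference 0.00962%). Whether counting used strand is not given in the sources used here.

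Counts of 82388 mRNA transcripts were summed per gene name. Genes were filtered by edgeR 4.0.16 (minimum count 10, minimum total 15), scaled by TMM, and tested with the quasi-likelihood test in 1 fit to all 16 mice, with Benjamini-Hochberg adjusted P below 0.05 over 15364 genes as the call. Intervals are 95%. Transcripts were fitted alike. Alternatives were DESeq2 1.42.0, limma 3.58.1 on log2(FPKM + 0.1), other scalings, filters, sets of mice, and a rule of unadjusted P below 0.05 with an absolute log2FC above 1. A fit without the 2 mice with the highest Ucp1 was added after seeing the data. Single values were tested by exact two-sided permutation of 4 mice against 4 (smallest P 0.0286), and correlations by 100000 permutations. The script was tested on simulated data. Nothing states that replicates came from separate litters or cages, so P values measure only the spread between these mice.

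The members, the marker lists, and the list of 91 pathway genes were chosen with earlier results of these data known. The text names all 10 members, up to 3 called and non-overlapping pathway genes in each direction and comparison (or that with the smallest P), the 3 genes most correlated with each of the 3 members with the smallest P for any difference, and transcripts of the members.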

Additional observations from a re-analysis of the deposited data

Results flagged for a closer look

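In 10 genes and 4 groups, 40 sets of 4 mice were examined for 1 mouse far from the other 3 by Dixon's criterion, which chance passes in about 1 of 20 sets. On the log2 CPM scale 3 sets passed, in CPM 3 sets passed, and 2 passed on both. The 2 on both scales were in the HFD group. Sqstm1 was 353 CPM in HFD mouse 1 against 522 to 545 in the other HFD mice, and that mouse was 1 of the 5 with counts of the short transcript. Map1lc3b was 105 CPM in HFD mouse 3 against 67.9 to 72.3, and its transcript ENSMUST00000180548 held 1641 counts there and 555 to 814 in the other HFD mice. Becn1, at 44.1 CPM in HFD mouse 2 against 49.1 to 50.2, passed on the log2 scale alone. Tfeb, at 64.9 CPM in control mouse 1 against 31.9 to 36.5, passed in CPM alone. The causes were not tested.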

How the results depend on the processing

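Of the 10 genes, 2 were called between the HFD and control groups under each of the 10 other scalings, filters, tools, and sets of mice, 0 with an unadjusted P below 0.05 and an absolute log2FC above 1, and 0 to 2 with 1 mouse left out. All genes called in that comparison numbered 374, against 16 to 1588 with 1 mouse left out, 1544 with DESeq2, 1616 without the HFD + metformin mice, 158 without a filter, 186 without scaling, 998 with only the 2 groups, 197 with FPKM, and 759 under the other call rule. In the HFD + RSV group against the control group, 0 genes of the 10 became 2 without the HFD + metformin group, 2 with DESeq2, 1 without the 2 mice with the highest Ucp1, and 0 to 2 with 1 mouse left out. Over all genes, 1 call became 231, 359, 53, and 0 to 261 in the same order. In the HFD + metformin group against the control group, 0 became 1 with DESeq2 and 0 to 2 with 1 mouse left out. Over all genes, 0 calls became 141 and 0 to 180. For any difference among the groups, 0 became 2 with DESeq2, 1 without both mice with the highest Ucp1, and 0 to 2 with 1 mouse left out. Over all genes, 18 calls became 773, 87, and 1 to 474. The causes were not tested. Without scaling, the median log2FC of all genes between the HFD and control groups moved to -0.18. The other 3 comparisons had 0 called members under every setting run. No paired analysis was possible because any 2 groups share fewer than 2 full label numbers (the leading and trailing number together), whose meaning is not stated. With 4 mice a group, genes that did not pass may still differ.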
